A study of Mus musculus with 6 samples.

Results

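The surface ectoderm genes Krt5, Krt8, Krt14, Krt15, Krt18, Krt19, Trp63 and Epcam were followed in the lens transcriptome of Gata3 conditional knockout (CKO) and control mouse embryos. They were taken by name, without a threshold on any measured value but with earlier results of these data known, and all 8 are among the 13024 genes of the count table. They comprise 3 keratins of the basal layer of stratified epithelia (Krt5, Krt14 and Krt15), 3 keratins of simple epithelia (Krt8, Krt18 and Krt19), the transcription factor gene Trp63 and the adhesion gene Epcam. RNA-Seq was performed on 6 pools of E14.5 lenses, 3 from control and 3 from CKO embryos, and each pool held 10 lenses from 5 embryos. All embryos had a mixed C57BL/6 and FVB background. The CKO embryos carried floxed Gata3 on both alleles and the Pax6-Cre transgene. The control embryos carried no Cre. Their labels call them wild type, whereas the study's text describes them as carrying floxed Gata3 on a single allele in one place and on both in another, so they are called control here. Pax6-Cre is driven by a Pax6 enhancer that is active in the ectoderm from which both the lens and the cornea arise, so its activity is not limited to lens cells.

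Keratins are intermediate filament proteins that work as obligate partners, one of type I with one of type II. Krt5 (type II) pairs with Krt14 and Krt15 (type I) in basal keratinocytes, and Krt8 (type II) pairs with Krt18 and Krt19 (type I) in simple epithelia and in the periderm, the outermost layer of the embryonic skin. Trp63 encodes p63, the p53 relative that maintains the basal layer and activates Krt5 and Krt14. Epcam encodes a membrane glycoprotein of epithelial cell contacts. The lens itself forms from head surface ectoderm, switches to vimentin and the beaded filament proteins after it separates, and then lies beneath the ectoderm that forms the cornea, conjunctiva and eyelids.

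The type I genes Krt14 (100203162–100207548), Krt15 (100131758–100135928) and Krt19 (100140810–100148665) lie together on the reverse strand of chromosome 11 in the mm10 build. The type II genes Krt5 (101707070–101712898) and Krt8 (101996698–102004482) lie on the reverse strand of chromosome 15. Krt18 (102028180–102032027), the one type I keratin gene outside the chromosome 11 group, lies on the forward strand of chromosome 15, next to Krt8. Trp63 lies on chromosome 16 (25683763–25892102) and Epcam on chromosome 17 (87635979–87651129), both on the forward strand. Of the 53 protein-coding keratin genes of the GENCODE annotation, 12 had a row in the count table, 4 of the 27 on chromosome 11 and 8 of the 26 on chromosome 15.

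Gata3 recognizes the sequence GATA with preferred flanking bases, and the windows before the members' starts were searched on both strands for the motif AGATAA, allowing T as its first letter and G as its last. The windows were the 250 bases before each RefSeq start on the GRCm38.p6 assembly, the assembly of mm10, and 5 members (Krt5, Krt8, Krt14, Krt18 and Epcam) had one. Krt8 and Krt14 held 1 match each, and Krt5, Krt18 and Epcam held 0, while 26.5% of all 32851 such windows held at least 1. The matches of Krt8 (chr15:102004563-102004592, reverse strand) and Krt14 (chr11:100206055-100206084, reverse strand) are shown because this is the motif of the deleted factor, with the matching bases in capitals.
Krt8: aggagggcaggAGATAAgacagcttaggtc
Krt14: tctgcagatggcTGATAAggctgctctgta
The Krt14 stretch shown lies before the start of a shorter transcript, within an intron of the longer one. It shares 0 bases with an annotated exon, as does the stretch shown for Krt8. Of the 60 bases before the RefSeq start, however, 60 in Krt8 and 36 in Krt18 lie in annotated exons. The last 60 bases before the start are shown for Krt5 (chr15:101712906-101712965, reverse strand), the member with the highest level, and for Epcam (chr17:87635919-87635978, forward strand), the member with the steadiest one. The core GATA is in capitals where it occurs.
Krt5: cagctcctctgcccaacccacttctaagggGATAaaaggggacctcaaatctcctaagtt
Epcam: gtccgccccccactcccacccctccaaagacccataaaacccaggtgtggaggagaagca
The core of Krt5 is preceded by G, where the searched motif has A or T, and is followed by A, which the motif allows. These matches describe the letters of the windows and do not show binding.

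Between 15157230 and 18811104 fragments were counted per library, and levels are given as CPM, which are counts scaled to a common library total with edgeR's TMM method. The tissue was lens by its markers, since crystallin genes took 5.47% to 16.5% of the counts, with the highest share in control replicate 2. Gata3 itself had counts of 202, 386 and 156 in the control pools, in the order of their replicate numbers, against 910, 1064 and 894 in those labelled CKO. The count is for the whole gene and does not show the deletion of 1 exon, and more of it was counted in the CKO libraries. The study's text states that loss of the exon was seen in the reads, which were not analysed here, and "CKO" means the libraries labelled CKO. Other lens genes also separated the groups as labelled. Dnase2b, the nuclease that clears DNA from fibre cells, had 12.9, 22.6 and 7.54 CPM in control and 0.973, 0.305 and 0.468 CPM in CKO, and Bfsp2, a beaded filament gene, had 364 CPM or more in control and 235 CPM or less in CKO. The CKO libraries are numbered here by their sample titles, and the count table numbers the same libraries 1 higher, so that CKO replicate 2 is its CKO3. The labels do not tell how the embryos of each pool were related, and the tests compare the group difference with the spread between pools.

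The members had no group difference beyond the spread between pools. By mean CPM over the 6 libraries, Krt5 stood at percentile 50.02 of all genes tested and Krt15 at percentile 35.3, and the other 6 members lay lower, between percentile 6.08 for Krt8 and 18.8 for Epcam. Together they took 1786, 1429 and 863 counts in control replicates 1, 2 and 3 and 990, 3426 and 1531 in CKO replicates 1, 2 and 3. Summed over the 8 genes, the control level was 87.4 ± 34.5 CPM and the CKO level 106 ± 59.6 CPM (SD, n = 3 each). Per kilobase of exon, the mean level over the 6 libraries was highest for Krt5, at 16.1 ± 8.12 CPM per kb (SD, n = 6), and then Krt15, at 12.1 ± 7.33. Krt18 followed at 6.28 ± 2.97, Epcam at 4.49 ± 0.918, Krt19 at 3.59 ± 1.76 and Krt14 at 3.49 ± 1.36. Within this order neighbouring genes differed by less than the larger of their standard deviations. Krt8, at 1.74 ± 0.662, and Trp63, at 0.591 ± 0.355, lay below the gene before them by more than that. The value of Trp63 is lowered by the 8.391 kb of exon that its alternative transcripts cover together.

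Krt5, the type II partner of the basal layer, had 40.5, 38.3 and 15.0 CPM in control replicates 1, 2 and 3 and 22.3, 66.0 and 29.9 CPM in CKO replicates 1, 2 and 3. The highest value of all was that of CKO replicate 2 and the lowest that of control replicate 3, so the groups overlapped. Krt15, a type I keratin of basal progenitor cells, had 23.2, 23.2 and 7.32 CPM in control and 13.6, 44.7 and 15.9 CPM in CKO. Its highest and lowest libraries were those of Krt5, and they differed 6.11-fold, more than for any other member. Krt14, the classical partner of Krt5, had 6.84, 9.16 and 2.57 CPM in control and 4.67, 8.04 and 5.57 CPM in CKO. It was also lowest in control replicate 3, but highest in control replicate 2. Fragments of Krt14 could be shared with those of the close paralogs Krt16 and Krt17, and its level is uncertain to that extent.

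Among the keratins of simple epithelia, Krt18 had 13.1, 8.32 and 6.14 CPM in control replicates 1, 2 and 3 and 4.41, 15.3 and 6.87 CPM in CKO. CKO held both its highest value, in replicate 2, and its lowest, in replicate 1. Krt8, the type II partner, had 3.29, 3.24 and 2.35 CPM in control and 3.05, 5.95 and 2.60 CPM in CKO. Its control values lay close together, with a coefficient of variation of 18.0%, and CKO replicate 2 stood 1.81-fold above the next library. Krt19, the keratin without a tail domain, had 6.84, 6.98 and 3.80 CPM in control and 5.32, 12.8 and 4.21 CPM in CKO, and CKO replicate 2 again stood above the rest, by 1.83-fold. Krt8 and Krt18 have processed copies in mammalian genomes, and how the counting treated fragments shared with them is not known.

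Trp63, the basal regulator, had counts of 104, 51 and 38 in control and 48, 201 and 79 in CKO. In CPM this was 6.59, 3.59 and 2.12 in control and 3.11, 10.2 and 4.11 in CKO, highest in CKO replicate 2 and lowest in control replicate 3, as for Krt5 and Krt15. Epcam had 12.8, 7.89 and 8.94 CPM in control and 7.72, 11.2 and 10.5 CPM in CKO. It differed least between libraries, by 1.66-fold from lowest to highest, and its highest library was control replicate 1.

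**Figure D1:**
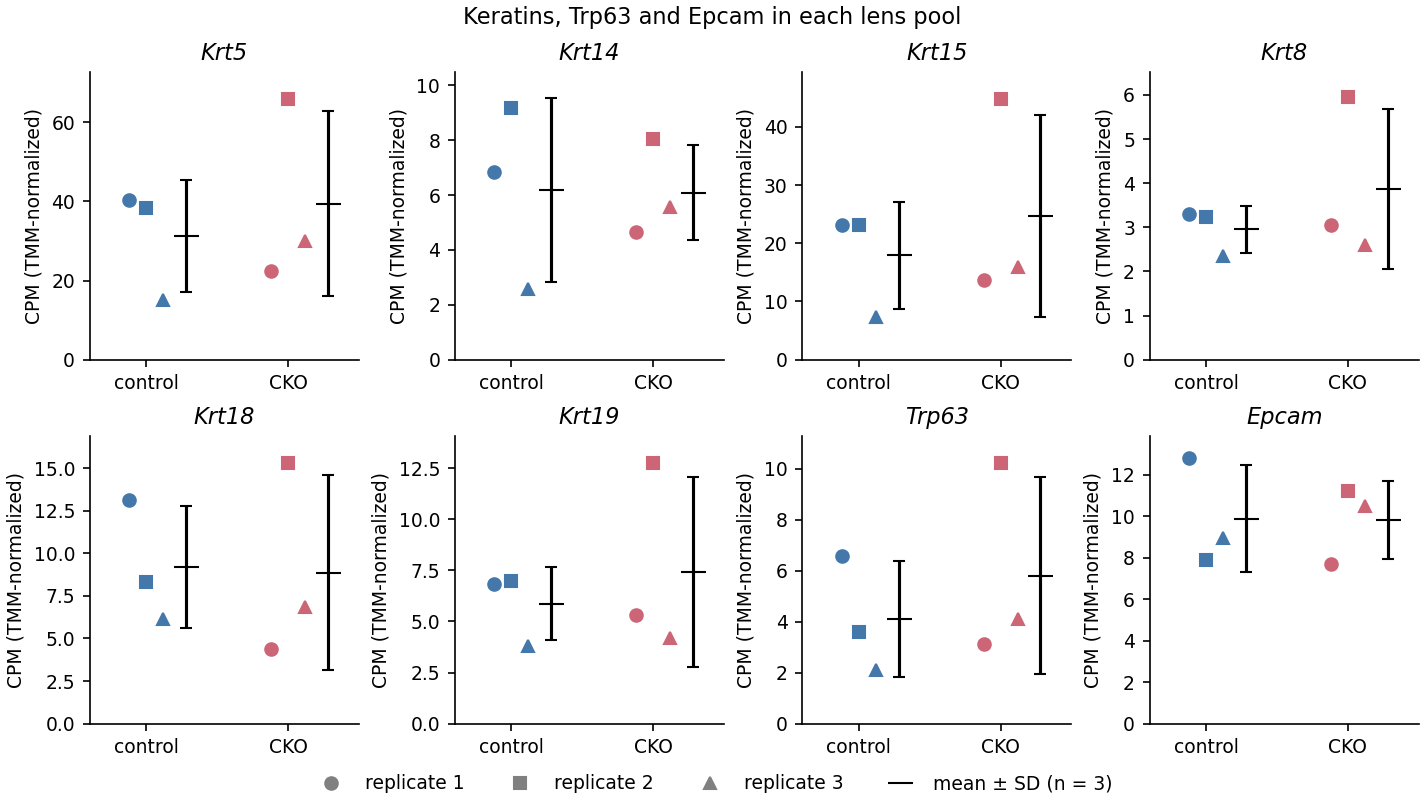
TMM-normalized CPM (y axis, linear from 0) of each of the 8 genes in the 3 control (blue) and 3 CKO (red) pools, with a symbol for each replicate number and the mean ± SD (n = 3) as a black bar. In all 8 panels the groups overlap, and CKO replicate 2 (red square) is the highest point for Krt5, Krt15, Krt8, Krt18, Krt19 and Trp63.

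To determine whether these genes differed between CKO and control lenses, edgeR's quasi-likelihood test was run on the 12879 genes that reached 10 counts in 3 or more libraries. All 8 members passed this filter on low counts, and the adjusted p-value was under 0.05 for 0 of the 8, as for all genes tested (0 of 12879, or 0%). At an unadjusted p-value under 0.05 the count was 0 of 8 members, against 3.55% of all genes. The groups were separate, without overlap, for 0 of 8 members and for 8.36% of all genes. DESeq2's Wald test called 0.660% of all genes and 0 of the members, and limma voom called 0 of all genes. Exact two-sided permutation tests of single members gave p = 0.6 to 1, where the smallest p that 3 pools against 3 allow is 0.1.

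Of the members, 5 had positive and 3 negative log2 fold changes (CKO against control), with a median of 0.34, where the median over all genes tested was 0.0019. With library totals as the only scaling, which shifted the median of all genes by 0.10, all 8 were positive, from 0.06 for Krt18 to 0.62 for Trp63. The control mean of Trp63 was 4.10 ± 2.28 CPM and the CKO mean 5.81 ± 3.85 CPM (SD, n = 3 each), and its log2 fold change was 0.51 (95% interval -0.88 to 1.90). For Krt15 these means were 17.9 ± 9.16 and 24.7 ± 17.3 CPM, and the log2 fold change was 0.47 (interval -0.96 to 1.90). Krt8 had a log2 fold change of 0.39 (interval -0.49 to 1.27), Krt19 of 0.35 (interval -0.79 to 1.48) and Krt5 of 0.34 (interval -0.88 to 1.56). These intervals do not exclude a level more than 2-fold higher in CKO. Epcam was measured most closely, with means of 9.88 ± 2.58 CPM for control and 9.82 ± 1.86 CPM for CKO (SD, n = 3 each) and a log2 fold change of -0.01 (interval -0.58 to 0.57). Krt14 and Krt18 had log2 fold changes of -0.01 (interval -1.13 to 1.097) and -0.05 (interval -1.25 to 1.15).

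The signs rested on single pools. Without CKO replicate 2, all 8 members had a log2 fold change below 0, from -0.70 for Krt18 to -0.07 for Krt8, and Krt5 had -0.26. The median of the members, 0.34 with all libraries, was then -0.26, and it was 0.05 without control replicate 3. Without control replicate 3, in which most members were lowest, Krt5 had 0.003 and Krt14 had -0.39. Without control replicate 1 or without CKO replicate 1, all 8 were above 0, and Trp63 reached 1.05 and 0.81. No member had an adjusted p-value under 0.05 in edgeR in any of these fits, and the lowest was 0.664, without control replicate 3.

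**Figure D2:**
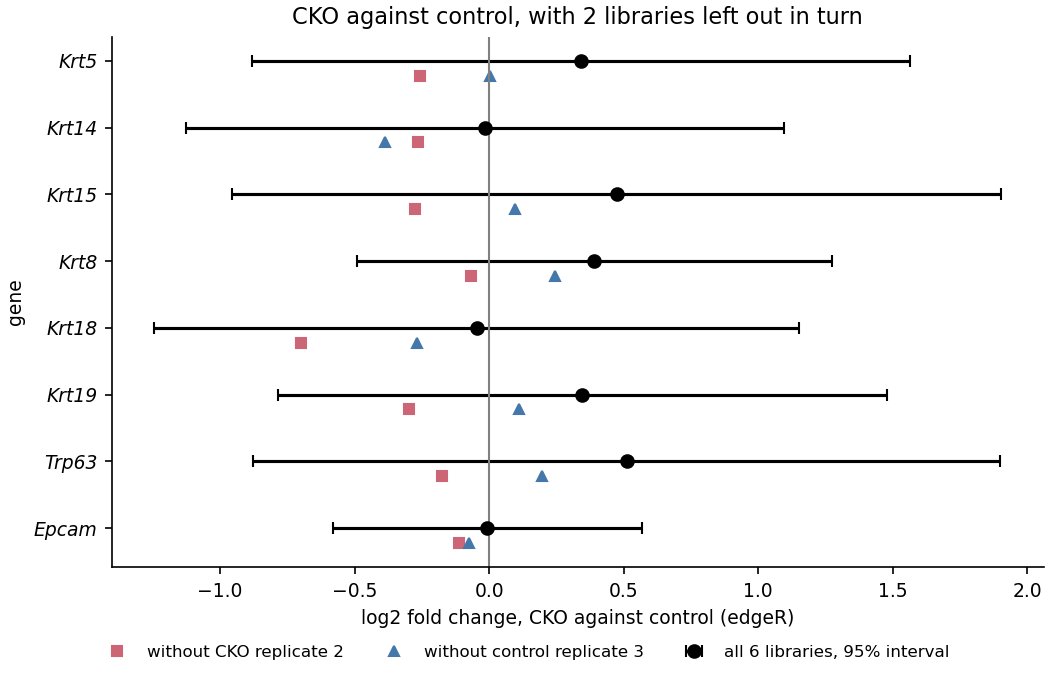
Log2 fold change of CKO against control (x axis, edgeR) for each gene (y axis), as black points with 95% intervals for all 6 libraries, and with CKO replicate 2 (red squares) or control replicate 3 (blue triangles) left out. Every interval includes 0, and all 8 red squares lie below 0.

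The variation that these genes showed was between pools of the same group. The pooled standard deviation of log2 CPM within groups had a median of 0.74 over the members and of 0.16 over all genes tested. For 6 of the 8 it was above the 95th percentile of all genes, and it was at percentile 88.7 for Krt8 and 78.7 for Epcam. The genes compared were not matched on level, and most members had a lower mean CPM than most genes tested. Counting error alone gives a coefficient of variation between 6.11% (Krt5) and 16.2% (Trp63) at the lowest count of each member. The observed coefficients of variation in CKO were 59.2% for Krt5, 70.1% for Krt15 and 66.2% for Trp63. Krt8 had 18.0% in control and 47.0% in CKO, against a counting error of 15.4% at its lowest count. Epcam had 26.2% in control and 18.9% in CKO, against 9.45% at its lowest count.

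CKO replicate 2 was the highest library for 6 of the 8 members, and for 13.8% of all genes. Relative to the mean of each gene over the 6 libraries, the members' level in this pool was 0.88 ± 0.37 on the log2 scale (mean ± SD over the 8 genes), and from 0.21 for Epcam to 1.28 for Krt15. Control replicate 3 was the lowest for 6 of the 8, and for 21.3% of all genes, with a mean level of -0.78 ± 0.42. Control replicate 1 was above the members' means (0.35 ± 0.21), CKO replicate 1 was below (-0.40 ± 0.24), and control replicate 2 (0.12 ± 0.32) and CKO replicate 3 (-0.17 ± 0.20) lay between them. The members are not independent measurements of a pool, since genes of the same cells vary together.

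**Figure D3:**
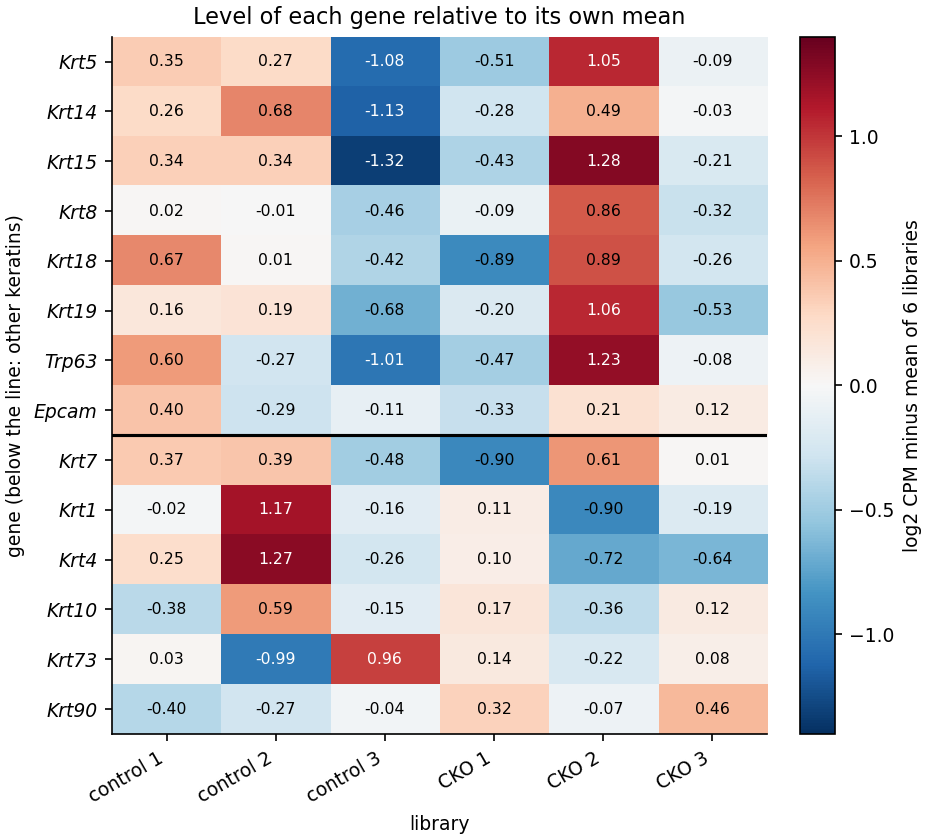
Log2 CPM of each gene minus its mean over the 6 libraries (colour and printed value) for the 8 genes and, below the line, the 6 other keratin genes of the table, in each library (columns). The column of CKO replicate 2 is highest for 6 of the 8 genes, whereas Krt1 and Krt4 are lowest there and highest in control replicate 2.

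The proportions of some keratin partners varied less than either single gene, and those of others did not. The summed level of the type II members Krt5 and Krt8 was 20.1, 19.1 and 8.01 CPM per kb in control replicates 1, 2 and 3 and 11.7, 33.1 and 14.9 in CKO. That of the type I members Krt14, Krt15, Krt18 and Krt19 was 29.8, 27.9 and 11.9 CPM per kb in control and 16.3, 47.4 and 19.2 in CKO. By mean level, Krt5 (16.1 CPM per kb, against 1.74 for Krt8) made up most of the type II sum. Krt15 (12.1, against 6.28 for Krt18) was the largest part of the type I sum, so the sums mostly describe Krt5 and Krt15. The ratio of type I to type II stayed between 1.28, in CKO replicate 3, and 1.49, in control replicate 3, the pool in which both sums were lowest. Per length, Krt5 exceeded Krt15 in every library, by 1.19-fold to 1.65-fold, with a mean ratio of 1.46 ± 0.165 for control and 1.34 ± 0.166 for CKO (SD, n = 3 each). The ratio of Krt5 to Krt14, the classical pair, ran from 3.35 in control replicate 2 to 6.57 in CKO replicate 2, a 1.96-fold range where Krt5 itself had 4.41-fold. The ratio of Krt8 to Krt19 was steadier, between 0.44 and 0.59. The ratio of Krt8 to Krt18 varied 2.75-fold, more than Krt8 itself (2.54-fold) and less than Krt18 (3.47-fold). It ran from 0.18 in control replicate 1 to 0.51 in CKO replicate 1, with 0.28 to 0.29 in the other libraries. Krt5 against Epcam varied most, from 1.67 to 5.87.

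**Figure D4:**
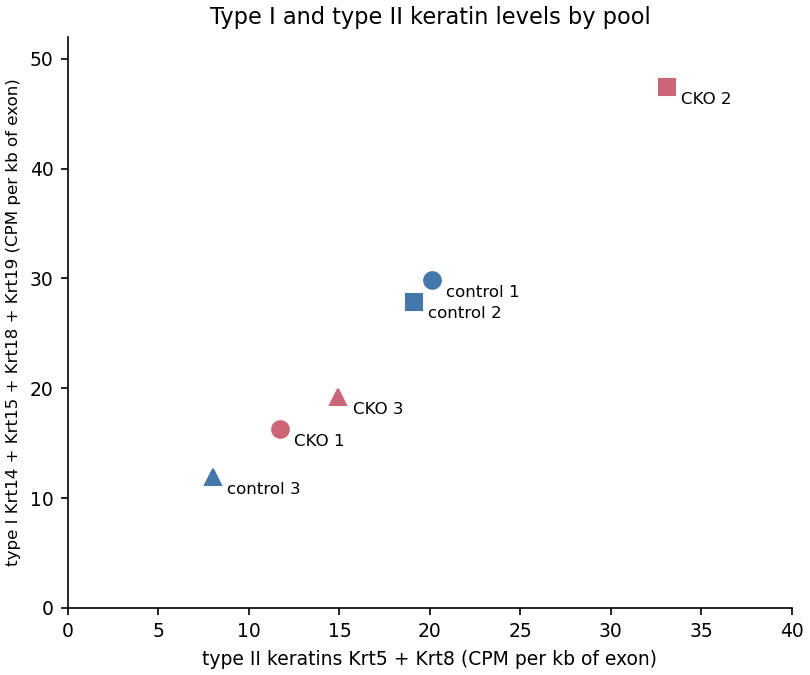
Summed level of the type I members (y axis) against that of the type II members (x axis), both in CPM per kb of exon, with 1 point for each of the 6 pools. The points of both groups lie along one line, from control replicate 3 (8.01 and 11.9) to CKO replicate 2 (33.1 and 47.4). By mean level, Krt5 is most of the type II sum and Krt15 the largest part of the type I sum.

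The 6 other keratin genes of the table did not all vary in the same way. Krt7, a type II keratin of simple epithelia, was highest in CKO replicate 2 (4.37 CPM) and lowest in CKO replicate 1 (1.49 CPM), as Krt18 was. Krt1, Krt10 and Krt4, which belong to the suprabasal layers of stratified epithelia, were highest in control replicate 2. Krt1 had 4.63, 10.6 and 4.19 CPM in control and 5.06, 2.49 and 4.11 CPM in CKO, and its lowest value was in the pool where Krt5 was highest. Krt73, a hair follicle keratin, was highest in control replicate 3 (13.2 CPM) and lowest in control replicate 2 (3.38 CPM), and Krt90 was highest in CKO replicate 3 (6.71 CPM). None of these 6 had an unadjusted p-value under 0.05 in edgeR. The lowest log2 fold change was -0.95 for Krt4 (interval -2.06 to 0.15), and the highest was 0.48 for Krt90 (interval -0.06 to 1.02).

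Genes that act with the members were examined in lists of known function, and some, such as Dsp and Itga6, stand in more than 1 list. Of 18 transcription factor genes of the surface ectoderm, 10 were tested, and 0 passed an adjusted or an unadjusted p-value of 0.05. Their median log2 fold change was 0.21, from -0.31 for Tfap2a to 0.70 for Klf5. Klf5, a factor of proliferating epithelia, had 1.77, 2.18 and 0.726 CPM in control and 1.30, 4.68 and 1.51 CPM in CKO, highest and lowest in the same libraries as Krt5. Grhl1, Grhl3, Msx2 and Tfap2a were highest in control replicate 2. Trp53, the founding member of the p53 family, ranged only from 93.4 to 101 CPM over the 6 libraries, with a log2 fold change of 0.03.

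Of 15 genes listed as p63 targets, 14 were tested, 0 had an adjusted p-value under 0.05, and the median log2 fold change was 0.10, from -0.45 for Fgfr3 to 0.64 for Itga6. Control replicate 3 was the lowest library for 10 of the 14 and CKO replicate 2 the highest for 7. Itga6, the laminin receptor of hemidesmosomes, had 216, 289 and 201 CPM in control and 394, 358 and 345 CPM in CKO, without overlap. The log2 fold change, 0.64 with a standard error of 0.15, had an adjusted p-value of 0.638 in edgeR, and it is also expressed by lens cells. The lowest library of Itga6 was control replicate 3, as for most members, but its highest was CKO replicate 1, which was highest for 0 of the 8 members. Sfn, an epidermal 14-3-3 protein gene, had 6.78, 7.40 and 2.63 CPM in control and 3.37, 7.78 and 5.88 CPM in CKO, and thus was lowest in control replicate 3.

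Keratin filaments end at desmosomes and hemidesmosomes. In the list of 11 desmosome genes, 7 were tested, 0 had an adjusted p-value under 0.05, and 5 were highest in CKO replicate 2. Dsp, which encodes desmoplakin, the anchor of keratin filaments, had 31.6, 18.3 and 6.42 CPM in control and 11.7, 49.9 and 13.9 CPM in CKO. Pkp2, a plakophilin of simple epithelia and heart, differed from Dsp in its pattern. It had 39.2, 62.2 and 35.7 CPM in control and 30.5, 22.5 and 27.9 CPM in CKO, without overlap and lowest in CKO replicate 2, and its log2 fold change was -0.76 with a standard error of 0.23, which did not pass the adjusted test. Ppl (periplakin) was also without overlap, with 10.96, 12.97 and 2.74 CPM in control and 15.9, 23.7 and 13.01 CPM in CKO and a fitted log2 difference of 0.99 (standard error 0.54), but control replicate 2 and CKO replicate 3 differed by less than their counting error. Of 10 hemidesmosome genes, 7 were tested and 0 had an adjusted p-value under 0.05. Of these 7, 4 were highest in control replicate 2, 1 in CKO replicate 1, and 2, Col17a1 and Col7a1, in CKO replicate 2. Col17a1, a transmembrane collagen of basal keratinocytes, had 20.2, 7.68 and 3.63 CPM in control and 4.73, 26.6 and 9.37 CPM in CKO. Col7a1, the collagen of the fibrils that anchor epidermis to dermis, had 31.0, 8.25 and 6.42 CPM in control and 4.60, 41.9 and 3.85 CPM in CKO, so that control replicate 1 and CKO replicate 2 stood apart from the other pools.

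Of 21 genes of epithelial junctions and their regulators, 10 were tested, with 5 positive and 5 negative log2 fold changes, a median of 0.05 and 0 adjusted p-values under 0.05. The lowest was -0.69 for Rab25. Cdh1, the E-cadherin gene, which lens epithelium also expresses, was highest in control replicate 2, at 172 CPM, and lowest in control replicate 3, at 59.8 CPM.

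Markers of mesenchyme and pigment cells differed between the same pools, and those of other tissues around the lens mostly peaked in other pools. The summed level of 11 mesenchyme genes was 2543, 626 and 306 CPM in control replicates 1, 2 and 3 and 356, 4562 and 631 CPM in CKO, a 14.9-fold range, and all 11 were highest in CKO replicate 2. By gene, 7 of the 11 were lowest in CKO replicate 1 and 4 in control replicate 3, although the sum was lowest in control replicate 3. Col1a1 alone had 599, 126 and 55.1 CPM in control and 58.0, 1130 and 114 CPM in CKO. The sum of 6 pigment cell genes was 326, 81.0 and 59.3 CPM in control and 76.8, 325 and 66.5 CPM in CKO. The members' summed level, 113, 101 and 48.2 CPM in control and 64.2, 174 and 79.7 CPM in CKO, was thus highest and lowest in the same pools as that of the mesenchyme genes. Control replicate 2 set them apart, with a members' level close to that of control replicate 1 and a mesenchyme level near that of CKO replicate 3. In that pool lens fibre genes were highest (22707 CPM over 11 genes, against 7184 to 10868 CPM in the others) and retina genes lowest (882 CPM over 13 genes, against 1445 to 2191 CPM). All 13 retina genes were highest in control replicate 3, the pool in which the members' sum was lowest. The 7 macrophage genes, the 6 blood genes tested and 5 of the 7 vessel genes were highest in control replicate 2. The summed lens epithelium genes varied 1.60-fold, from 2523 CPM in CKO replicate 1 to 4042 CPM in control replicate 2. The part of tissue other than lens in the members' levels was not tested, and in bulk pools a greater number of ectodermal cells and more RNA for each cell cannot be told apart.

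**Figure D5:**
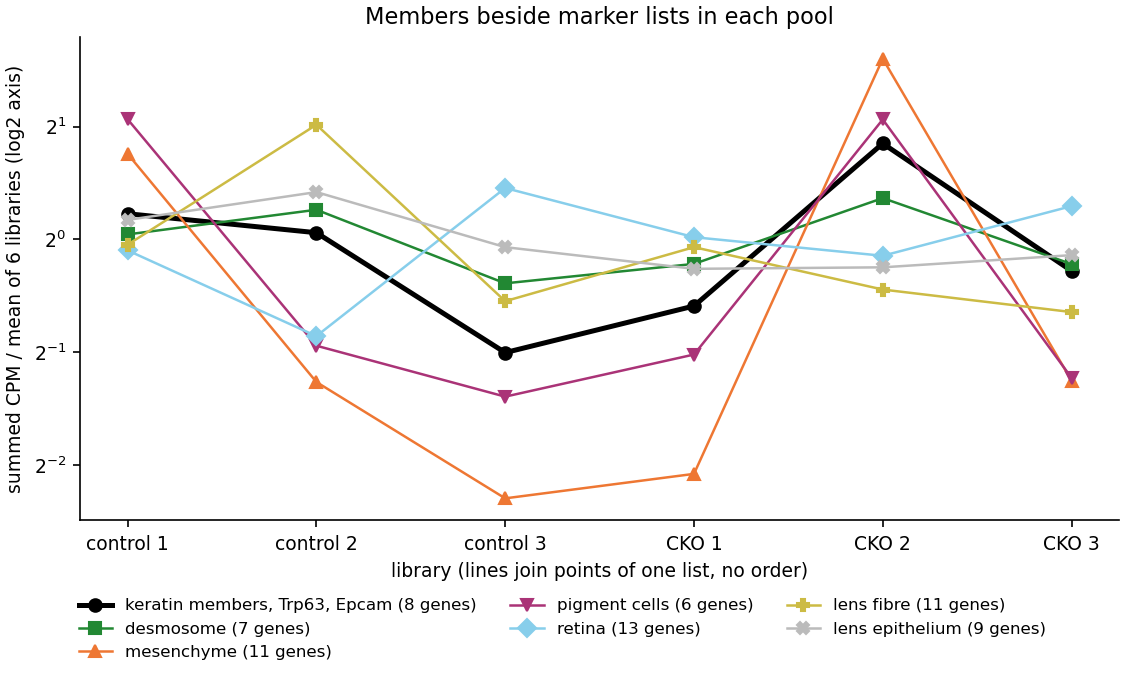
Summed CPM of the 8 genes (black) and of the marker lists, each divided by its mean over the 6 libraries (y axis, log2 scale), for each library (x axis). The black line and the mesenchyme line both have their highest point at CKO replicate 2 and their lowest at control replicate 3, and at control replicate 2 they lie apart.

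The genes whose levels were most like each member were taken from all genes tested, by the root mean square difference of log2 CPM over the 6 libraries after centring each gene on its mean. For Krt5 these included Anxa2 (0.09), a membrane-binding annexin, and Scarf2 (0.11). Anxa2 had 73.9, 67.2 and 27.8 CPM in control and 39.7, 101 and 50.6 CPM in CKO. For Krt15 they were Klf5 (0.14), Krt5 (0.15) and Tbx15 (0.18), and so 1 member was found among the 3 genes most like another. For Trp63 they were Edn3 (0.12), the endothelin-3 gene, Serpinf1 (0.12) and Gjb2 (0.15), which encodes connexin 26. For Krt8 they were Kctd12 (0.13), Nfia (0.14) and Cdh6 (0.16), for Krt18 Lsp1 (0.11), Spaca1 (0.12) and Snai2 (0.12), for Krt19 Fam212a (0.13), Slc2a10 (0.14) and Il11ra1 (0.15), and for Krt14 Nudt17 (0.17), Vamp5 (0.17) and Xlr3b (0.19). Among all genes Krt8 ranked 6 in likeness to Krt19, at 0.18, whereas Epcam differed from each of the other members by 0.41 or more. These matches rest on 6 points that share library and depth, and are given as a description.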

How the data were processed

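Poly(A) RNA of 6 pools of E14.5 mouse lenses was sequenced as stranded libraries. The authors trimmed the reads with Trim Galore, mapped them to mm10 with Tophat 2.0.13, and deposited counts per RefSeq gene from HTSeq 0.6.1. The table was limited by them to genes whose mean FPKM, from Cuffdiff 2.2.1, exceeded 1 in control or CKO. How HTSeq was set for strand and overlaps is not given in the sources used here, so reads of overlapping or antisense genes may not be told apart.

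Genes that reached 10 counts in 3 or more libraries were tested on the deposited counts with edgeR 4.0.16 (TMM, robust quasi-likelihood F-test, Benjamini-Hochberg adjustment, threshold 0.05), which was tested on simulated data. Intervals are 95%. DESeq2 1.42.0 and limma voom 3.58.1 were alternatives. Log2 CPM used a prior count of 1, and permutation tests used log2(CPM + 0.5). Replicate numbers are those of the sample titles (KO1 to KO3), which the deposited columns and sample descriptions give as CKO2 to CKO4. Levels per kb used the union of GENCODE exons, and promoter windows were taken from RefSeq. The members and gene lists were chosen with earlier results of these data known, and no list is independent evidence. Named genes were the members, the other keratins of the table, Gata3, genes of the lists (from each pathway list at least those with the lowest and highest log2 fold change), and the 3 genes most like each member whose log2 CPM range was above 1. Some genes that this rule names are not reported here.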

Additional observations from a re-analysis of the deposited data

How the results depend on the processing

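No member was called in any of the 16 alternatives. The number of genes called, 0 in edgeR with TMM, was 85 with DESeq2's Wald test and 1 with library totals as the only scaling, which moved the median log2 fold change of all genes by 0.10. Members with a log2 fold change near 0 changed sign. Epcam had 0.0019 with upper-quartile factors, 0.089 with library totals, 0.023 with limma voom and 0.0082 with the replicate block. Krt14 had 0.13 with library totals, 0.21 with limma voom and 0.10 with the replicate block, and Krt18 had 0.061 with library totals. The cause was not tested.

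With each replicate left out in turn, the genes called ranged from 0 to 1 and those at an unadjusted p-value under 0.05 from 271 (without CKO replicate 3) to 1234 (without control replicate 3), with 806 without control replicate 2. The median log2 fold change of the members, 0.34 with all libraries, ranged from -0.26 (without CKO replicate 2, where its sign changed) to 0.56 (without CKO replicate 3), and was between 0.27 and 0.47 in the alternatives that kept all libraries. The log2 fold change ranged from -0.26 to 0.62 for Krt5, -0.067 to 0.61 for Krt8, -0.39 to 0.39 for Krt14, -0.27 to 0.76 for Krt15, -0.70 to 0.32 for Krt18, -0.30 to 0.63 for Krt19, -0.18 to 1.05 for Trp63 and -0.13 to 0.24 for Epcam.

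Samples with the same title number did not all deviate together (correlations of -0.49, 0.09 and 0.44 for replicates 1, 2 and 3). The labels give no link between them other than the number. With the replicate block 0 genes were called and 516 had an unadjusted p-value under 0.05, against 457 without it. The counts of the members, from 38 to 1298, and the spread between 3 pools limit what could be detected, and the intervals reach 0.57 to 1.43 on the log2 scale on either side.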
